A study of Mus musculus with 10 samples.

Results

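Some T cell receptor (TCR) beta chains recur from one library to another, and 666 such clonotypes were found here among the splenic regulatory T (Treg) cells of 10 mouse samples. A beta clonotype was taken as a V gene, a J gene and an amino acid sequence of the CDR3, the loop that joins them, and the 666 were selected on measured detection: a count of 1 or more in 5 or more of the 10 libraries. They are 0.406% of the 164170 beta clonotypes detected, and they held 7478 of the 266347 beta (TRB) counts, or 2.81%. The remaining 163504 beta clonotypes were detected in 1 to 4 libraries and serve as the comparison below. Because detection chose the members, their number of libraries and their counts are given as descriptions, with no test against the other clonotypes. The only test compares the groups, clonotype by clonotype, in a fit over members and other clonotypes alike.

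The libraries came from RNA of Treg cells used directly after isolation, with no treatment. The 5 CNS4KO samples (labelled KO) came from mice deficient in CNS4, an enhancer of Foxp3, and the 5 CNS4Flox samples (labelled WT) from mice in which that enhancer is floxed. Repertoire diversity is the stated purpose of the sequencing. How the deletion was made, the age and sex of the mice, the number of cells and whether each sample is a single mouse are not given in the sources used here, so the spread between samples may be in part technical. The TRB counts ranged from 19199 to 34833 per library. TCR libraries hold no marker genes, so the Treg label could not be checked against them.

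A TCR beta chain is assembled when 1 V, 1 D and 1 J segment are cut and joined in a developing T cell. Bases are trimmed from the segment ends, and terminal transferase adds untemplated bases at both joins, so most chains are unlike those of any other cell. Chains found in many individuals are called public, and they are known to carry few untemplated bases and to be made by several nucleotide sequences that encode the same amino acids.

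The sequences printed here show how a single amino acid clonotype was written in different libraries. Each runs from 5′ to 3′ over the CDR3 as deposited, from the conserved cysteine codon to the conserved phenylalanine codon, and capitals mark the bases that the deposited positions assign to no V, D or J part (inserted bases). These positions leave at least 1 base between D and J in every sequence with a D match, so the last capital before the J part may be a D base that was not counted as such. The first 12 encode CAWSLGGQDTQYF with TRBV31 and TRBJ2-5, 1 of only 2 clonotypes found in all 10 libraries.
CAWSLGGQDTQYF, 6 libraries, 16 counts: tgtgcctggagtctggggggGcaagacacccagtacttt
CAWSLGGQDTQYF, 2 libraries, 3 counts: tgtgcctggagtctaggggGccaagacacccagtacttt
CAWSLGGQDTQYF, 2 libraries, 2 counts: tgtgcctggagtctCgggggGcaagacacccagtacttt
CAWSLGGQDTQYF, 1 library, 3 counts: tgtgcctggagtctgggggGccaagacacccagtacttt
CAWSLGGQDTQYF, 1 library, 2 counts: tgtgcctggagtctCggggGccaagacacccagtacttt
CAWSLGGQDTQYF, 1 library, 2 counts: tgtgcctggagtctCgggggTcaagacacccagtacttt
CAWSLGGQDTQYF, 1 library, 2 counts: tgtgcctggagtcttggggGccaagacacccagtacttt
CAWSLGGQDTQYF, 1 library, 2 counts: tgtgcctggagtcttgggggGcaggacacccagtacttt
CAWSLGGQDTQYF, 1 library, 1 count: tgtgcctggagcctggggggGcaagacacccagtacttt
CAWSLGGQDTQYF, 1 library, 1 count: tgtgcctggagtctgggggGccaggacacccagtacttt
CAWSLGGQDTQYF, 1 library, 1 count: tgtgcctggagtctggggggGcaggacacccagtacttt
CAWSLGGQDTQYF, 1 library, 1 count: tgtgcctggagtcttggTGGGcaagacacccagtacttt

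The most widespread of these sequences was in 6 of the 10 libraries, and 9 of the 12 were in a single library each. They differ at the last base of codons, most of them between the V and J parts. The clonotype had 8, 1, 2, 8 and 4 counts in CNS4KO samples 1 to 5 and 3, 2, 3, 4 and 1 counts in CNS4Flox samples 1 to 5. No library stood out, and the groups overlapped.

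The other clonotype in all 10 libraries, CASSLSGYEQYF with TRBV26 and TRBJ2-7, had 10 sequences, none in more than 3 libraries. All of them are shown: 6 were in a single library each, 3 in 2 libraries and 1 in 3.
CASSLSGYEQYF, 3 libraries, 8 counts: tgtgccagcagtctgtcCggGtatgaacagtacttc
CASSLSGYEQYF, 2 libraries, 6 counts: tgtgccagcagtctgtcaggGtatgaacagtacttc
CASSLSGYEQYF, 2 libraries, 2 counts: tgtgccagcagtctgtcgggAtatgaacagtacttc
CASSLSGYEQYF, 2 libraries, 2 counts: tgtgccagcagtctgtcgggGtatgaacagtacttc
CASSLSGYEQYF, 1 library, 1 count: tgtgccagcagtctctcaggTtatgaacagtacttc
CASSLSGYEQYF, 1 library, 1 count: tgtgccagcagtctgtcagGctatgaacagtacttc
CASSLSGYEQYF, 1 library, 1 count: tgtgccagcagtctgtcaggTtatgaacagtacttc
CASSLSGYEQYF, 1 library, 1 count: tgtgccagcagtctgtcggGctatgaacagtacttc
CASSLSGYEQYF, 1 library, 1 count: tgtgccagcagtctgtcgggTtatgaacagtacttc
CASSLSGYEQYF, 1 library, 1 count: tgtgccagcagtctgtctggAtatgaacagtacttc

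Its counts were 6, 4, 1, 3 and 1 in CNS4KO samples 1 to 5 and 2, 2, 1, 1 and 3 in CNS4Flox samples 1 to 5. The low counts in every library show a receptor that was present throughout without being large in any sample.

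The highest number of sequences, 14, belonged to a clonotype of 14 residues with TRBV1 and TRBJ2-7, found in 9 libraries. The 5 shown differ in the D match (TRBD1 reads gggaca, TRBD2 gggact in these sequences), in the base before the D match and in the codon for the glycine that precedes the J part.
TRBV1 with TRBJ2-7, 2 libraries, 2 counts: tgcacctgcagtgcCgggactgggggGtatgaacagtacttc
TRBV1 with TRBJ2-7, 2 libraries, 2 counts: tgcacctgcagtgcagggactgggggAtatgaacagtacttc
TRBV1 with TRBJ2-7, 2 libraries, 2 counts: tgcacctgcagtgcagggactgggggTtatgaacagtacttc
TRBV1 with TRBJ2-7, 1 library, 3 counts: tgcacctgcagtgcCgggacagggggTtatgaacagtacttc
TRBV1 with TRBJ2-7, 1 library, 2 counts: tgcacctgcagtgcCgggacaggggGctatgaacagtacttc

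None of the 14 was in more than 2 libraries. At the other extreme, 3 members had a single sequence wherever they were found, and 2 members had a sequence in 7 libraries, the most for any sequence of a member. These 5 are shown as the cases in which the nucleotides themselves recurred.
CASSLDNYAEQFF, 6 libraries, 17 counts: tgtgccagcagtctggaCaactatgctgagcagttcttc
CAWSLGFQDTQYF, 5 libraries, 19 counts: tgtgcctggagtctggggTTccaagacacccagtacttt
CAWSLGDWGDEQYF, 5 libraries, 8 counts: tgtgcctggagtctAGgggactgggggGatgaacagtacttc
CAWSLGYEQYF, 7 libraries, 14 counts: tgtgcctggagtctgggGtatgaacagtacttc
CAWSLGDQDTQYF, 7 libraries, 17 counts: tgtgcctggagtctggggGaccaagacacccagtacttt

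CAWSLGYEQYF, with TRBV31 and TRBJ2-7, had 8 sequences in all, and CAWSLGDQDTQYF, with TRBV31 and TRBJ2-5, had 5. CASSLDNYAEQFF (TRBV26, TRBJ2-1) had 17 counts in 6 libraries, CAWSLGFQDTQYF (TRBV31, TRBJ2-5) 19 counts in 5 libraries and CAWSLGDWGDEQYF (TRBV31, TRBJ2-7) 8 counts in 5 libraries, each with no other sequence. The printed sequences of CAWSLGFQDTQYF and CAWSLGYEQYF were both in CNS4KO sample 5 and in CNS4Flox sample 3. These 2 libraries shared the most sequences of any pair, as described further on. With that pair counted once, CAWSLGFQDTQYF would not reach 5 libraries.

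Of the 12 clonotypes in 9 or 10 libraries, the 10 with the highest mean share of TRB counts used TRBV31 (5), TRBV12-1 (2), TRBV26 (2) and TRBV1 (1). The largest of them, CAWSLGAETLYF with TRBV31 and TRBJ2-3, had 2, 1, 0, 16 and 7 counts in CNS4KO samples 1 to 5 and 3, 2, 7, 2 and 1 counts in CNS4Flox samples 1 to 5. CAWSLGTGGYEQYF with TRBV31 and TRBJ2-7 had 2, 3, 5, 6 and 1 counts in CNS4KO samples 1 to 5 and 0, 5, 6, 2 and 5 in CNS4Flox samples 1 to 5. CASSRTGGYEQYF with TRBV12-1 and TRBJ2-7 had 1, 7, 1, 7 and 6 counts in CNS4KO samples 1 to 5 and 1, 2, 1, 2 and 0 in CNS4Flox samples 1 to 5. The groups overlapped for all 3. Over the 10, total counts ranged from 22 to 41, the number of sequences from 8 to 14, and the adjusted p of the comparison between groups from 0.866 to 0.994 (edgeR's quasi-likelihood test, described further on).

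Detection fell steeply and without a break across the threshold. Of all beta clonotypes, 146889 were in 1 library, 12647 in 2, 2953 in 3 and 1015 in 4. Just inside the threshold were 403 clonotypes in exactly 5 libraries, followed by 161 in 6, 66 in 7, 24 in 8, 10 in 9 and 2 in 10. The 1015 just outside and the 403 just inside resembled each other in mean CDR3 length (13.2 ± 1.13 and 13.1 ± 1.11 residues, SD over clonotypes) and in mean inserted bases (2.07 ± 1.19 and 2.04 ± 1.16, SD over distinct sequences), so the threshold marks a place on a gradient.

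**Figure D1:**
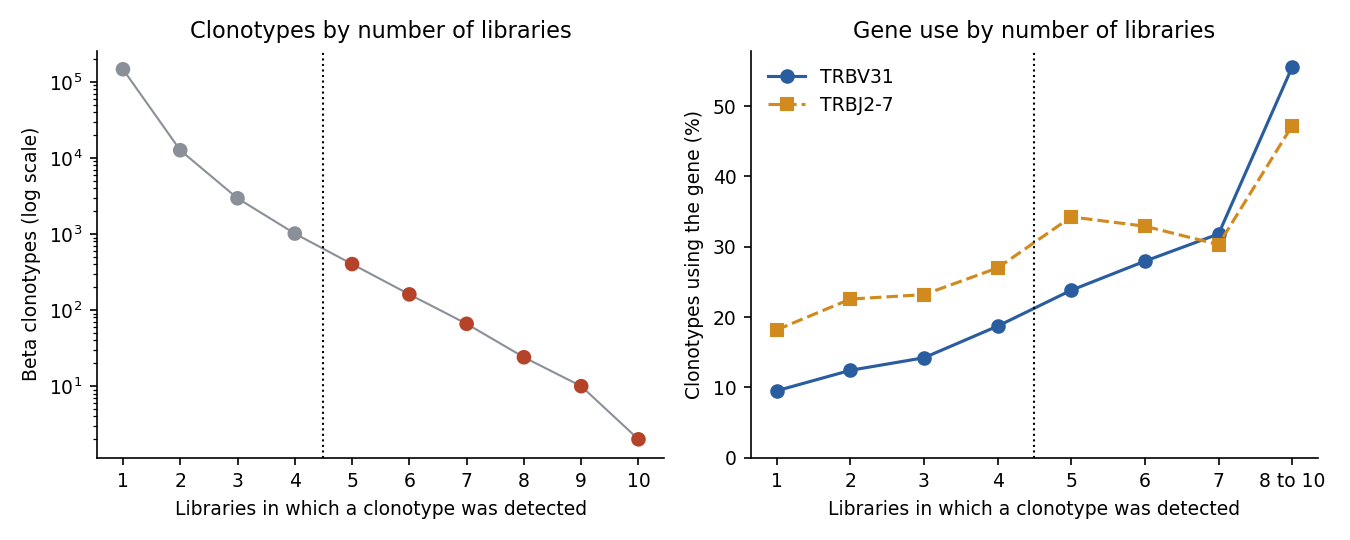
Left, number of beta clonotypes (log scale) against the number of libraries in which each was detected, with clonotypes in 5 or more libraries in red. Right, percent of clonotypes in each class that use TRBV31 (circles) or TRBJ2-7 (squares). The dotted lines mark the threshold, and TRBV31 use went from 9.53% of clonotypes in 1 library to 55.6% of those in 8 to 10.

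V gene use was concentrated. Of the 666 members, 182 (27.3%) used TRBV31, against 9.90% of the clonotypes in 1 to 4 libraries, a ratio of 2.76. TRBV12-1 followed with 81 members (12.2% against 5.62%, ratio 2.17), TRBV15 with 56 (8.41% against 5.48%, ratio 1.53) and TRBV26 with 53 (7.96% against 4.93%, ratio 1.62). These 4 genes each encode the part of the chain that holds its first and second loops. Of V genes with 20 or more members, TRBV13-2 had the lowest ratio (0.563, 23 members), followed by TRBV5 (0.753, 33 members) and TRBV12-2 (0.896, 21 members). TRBV12-1 and TRBV12-2, which belong to 1 family, thus lay on opposite sides of equal use.

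TRBV31 use was higher at each further step in the number of libraries, from 9.53% of clonotypes in 1 library through 18.7% in 4, 23.8% in 5, 28.0% in 6 and 31.8% in 7 to 55.6% of the 36 clonotypes in 8 to 10. TRBV31 lies at chromosome 6, 41557693 to 41558371, in the RefSeq annotation of GRCm38.p6, the assembly of the mm10 build that the labels name. It is apart from the other V genes, past the J genes: TRBJ2-7, the last J gene, lies at 41543810 to 41543856 on the same chromosome, and TRBV12-1 at 41113567 to 41114067. All 22 V and 12 J gene names were found in that annotation, as V and J segments except TRBV29, which it lists as a V segment pseudogene.

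Among J genes, TRBJ2-7 was used by 228 members (34.2% against 18.7% of other clonotypes, ratio 1.83) and TRBJ2-4 by 109 (16.4% against 11.6%, ratio 1.42). The J genes least used relative to the other clonotypes, among those with 20 or more members, were TRBJ2-1 (38 members, ratio 0.528) and TRBJ1-3 (22 members, ratio 0.608). Genes of the second J cluster supplied 518 members (77.8%), against 68.0% of other clonotypes. TRBV31 with TRBJ2-7 was the commonest pair, with 57 members (8.56% against 1.69%). No test is given for these shares, since members recur in the same libraries and are related in sequence.

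**Figure D2:**
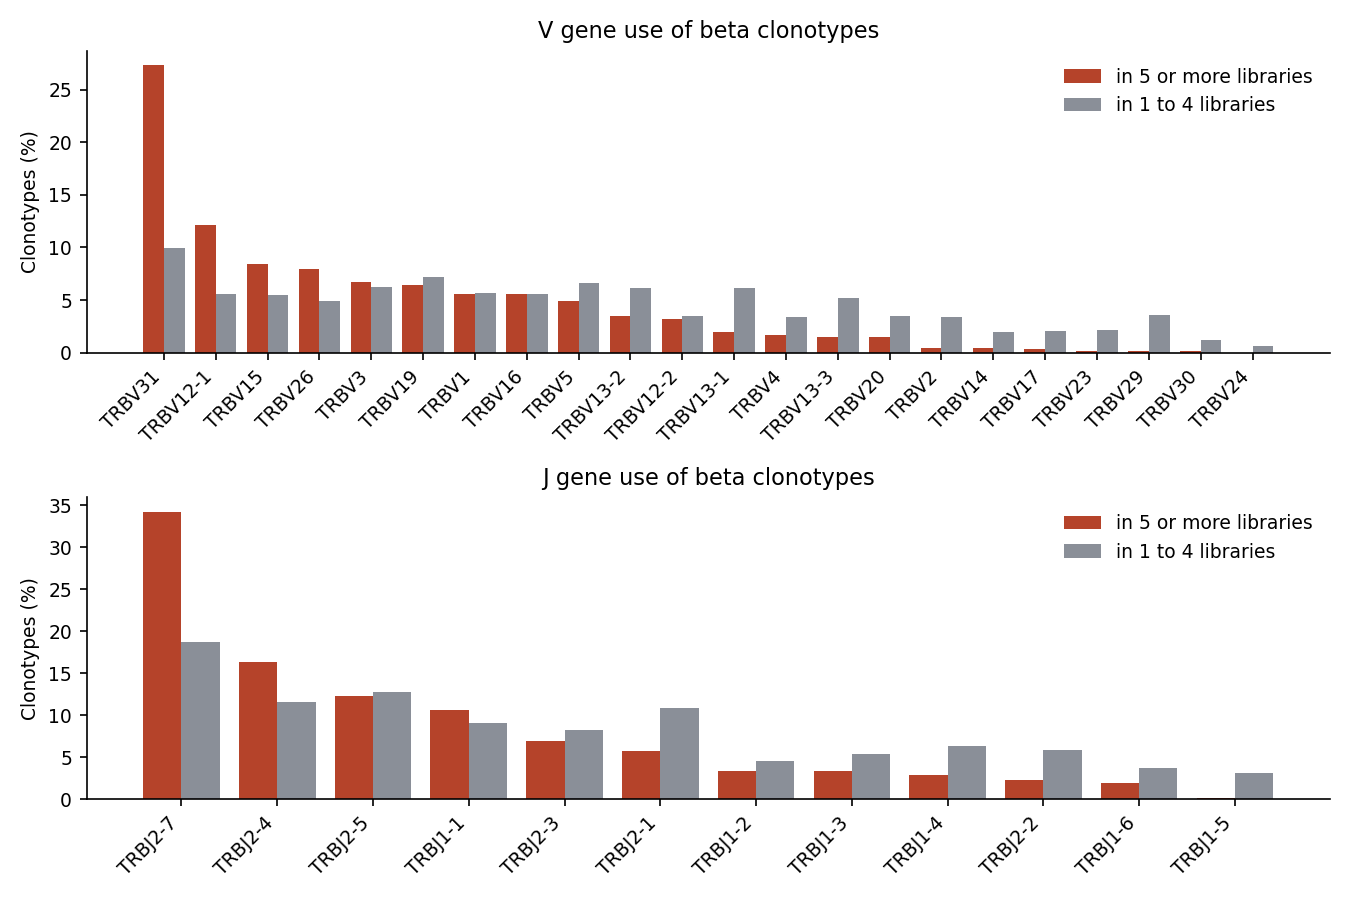
Percent of beta clonotypes that use each V gene (top) and each J gene (bottom), for the 666 clonotypes in 5 or more libraries (red) and the 163504 in 1 to 4 libraries (grey), ordered by use among the former. TRBV31 (27.3% against 9.90%) and TRBJ2-7 (34.2% against 18.7%) show the widest gaps.

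Lists of V genes were described by their counts. Genes whose receptors can bind mouse endogenous retroviral superantigens (TRBV12-1, TRBV12-2, TRBV15 and TRBV16) supplied 195 members, 29.3% against 20.2% of other clonotypes. Only TRBV12-1 (ratio 2.17) and TRBV15 (1.53) were above equal use, and TRBV12-2 (0.896) and TRBV16 (0.996) were not. V genes used by invariant natural killer T cells (TRBV1, TRBV13-2 and TRBV29) supplied 61 members, 9.16% against 15.4%. Their ratios were uneven, at 0.974 for TRBV1, 0.563 for TRBV13-2 and 0.0417 for TRBV29. V genes common in mucosal-associated invariant T cells (TRBV13-1, TRBV13-2, TRBV13-3 and TRBV19) supplied 89 members, 13.4% against 24.6%. Here TRBV19 was close to equal use (ratio 0.899), and TRBV13-1 (0.320), TRBV13-2 (0.563) and TRBV13-3 (0.289) were lower. The last pair of lists stands for other T cell types that a sample could hold, and conventional T cells use the same V genes.

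The members were short and narrow in CDR3 length. Their mean was 13.1 ± 1.11 residues (SD, n = 666, range 10 to 16), against 13.8 ± 1.37 (n = 163504, range 6 to 34). CDR3s of 12 to 14 residues made up 559 members (83.9% against 65.5%), and those of 15 or more made up 48 (7.21% against 29.8%). The gap held in each library: members detected there differed from the other clonotypes by a mean of -0.672 ± 0.0336 residues (SD, n = 10 libraries).

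The residues of the loop were also uneven. Between the first 3 and the last 4 residues, a pair of glycines (GG) was found in 218 members (32.7% against 23.8% of other clonotypes). DWG, which a TRBD2 reading frame can encode, was found in 53 (7.96% against 4.54%), and TGG in 58 (8.71% against 5.72%). Other motifs counted were less frequent in members: GQG (1.95% against 3.38%), DRG (1.95% against 3.13%), SG (4.80% against 8.98%), GLG (2.55% against 3.14%) and GTG (4.95% against 5.25%). Tryptophan in any context was also less frequent (9.91% against 13.8%). Proline was found in 47 members (7.06% against 18.5%), and no member had a cysteine there, which 0.114% of the others had. These shares were not taken at equal length or equal J gene use. The CDR3s of other clonotypes were longer (mean 13.8 against 13.1 residues), so more positions were searched in them. Of the 182 TRBV31 members, 133 began with CAWSL (73.1% against 37.3% of other TRBV31 clonotypes), 33 with CAWSR (18.1% against 9.61%) and 11 with CAWSP (6.04% against 13.1%).

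The members formed families of near-identical loops. The 666 clonotypes held 595 distinct CDR3 amino acid sequences, of which 47 occurred with more than 1 V gene. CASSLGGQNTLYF, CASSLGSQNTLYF, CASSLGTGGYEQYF and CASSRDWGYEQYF each occurred with 5 V genes. A member with the same V gene, J gene and length that differed by 1 residue existed for 366 members (55.0%). The 4 families with the most members all used TRBV31, with 15, 12, 11 and 10 members, and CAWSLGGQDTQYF, whose sequences are printed above, had 9 such neighbours.

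Few bases in the members' loops were inserted. Over their 3287 distinct nucleotide sequences with usable positions, the mean was 1.99 ± 1.13 inserted bases (SD over sequences), against 3.48 ± 2.09 over 175502 sequences of the other clonotypes. Sequences with 2 or fewer inserted bases made up 71.6% against 36.6%, and those with 6 or more 0.517% against 15.1%. V, D and J parts accounted for a mean of 95.0% of each member sequence, against 91.7%.

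Both joins took part. Among sequences with a D match, V and D met with no inserted base in 57.2% of the 3065 of members against 35.9% of the 170031 of others, with means of 0.698 ± 0.979 and 1.46 ± 1.57 bases. Between D and J, where the deposited positions never give fewer than 1 base, exactly 1 base was given for 79.7% against 50.4%, with means of 1.32 ± 0.736 and 2.08 ± 1.51. With such single bases counted as 0, the means over both joins were 1.25 ± 1.33 for members and 2.99 ± 2.35 for the others.

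The gap was present, and narrower, at equal length. The means were 1.80 against 2.46 inserted bases at 12 residues, 2.0 against 2.94 at 13 and 2.13 against 3.49 at 14. It was also present within TRBV31, with 2.12 against 3.74. In the 10 libraries the members' mean ranged from 1.78 to 1.97 and that of other clonotypes from 3.38 to 3.51, so the ranges were apart in every library, and CNS4KO (1.87 ± 0.0790, n = 5) and CNS4Flox (1.85 ± 0.0387, n = 5) overlapped.

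**Figure D3:**
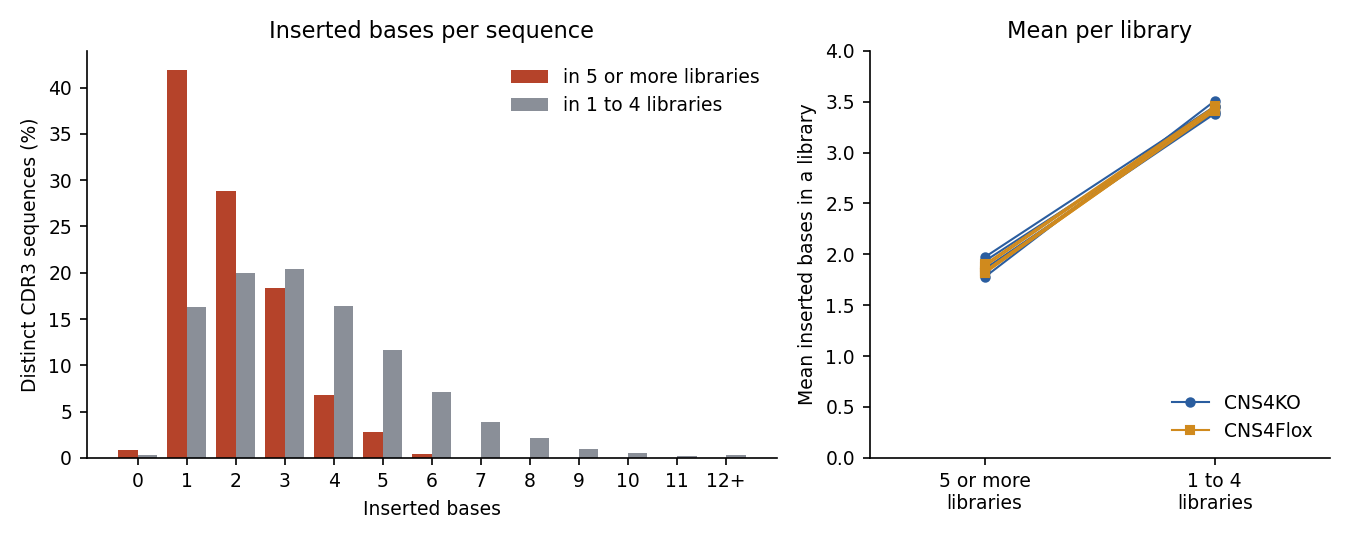
Left, percent of distinct CDR3 nucleotide sequences by number of inserted bases, for clonotypes in 5 or more libraries (red) and in 1 to 4 libraries (grey). Right, mean inserted bases in each library for both classes, with 1 line per library (CNS4KO circles, CNS4Flox squares). The library means lie between 1.78 and 1.97 on the left and between 3.38 and 3.51 on the right.

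Most members were encoded by several nucleotide sequences. The 666 members comprised 3364 distinct nucleotide sequences, a mean of 5.05 ± 1.82 per member (SD, n = 666, median 5, range 1 to 14). At least 5 sequences were found for 391 members (58.7%), and 307 (46.1%) had as many sequences as libraries, or more. Of the 3364 sequences, 2459 (73.1%) were found in 1 library only. A count of variants grows with the number of libraries a clonotype is found in, which the rule fixed, so it is given as a description.

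A single nucleotide sequence rarely carried the sharing. The most widespread sequence of a member was in 1 library for 99 members, in 2 for 314, in 3 for 173 and in 4 for 59. It reached 5 libraries in 15 members, 6 in 4 and 7 in 2, so 21 members (3.15%) would meet the same threshold by nucleotides. The 2036 positions at which sequences of a member differed were mostly the last base of a codon (82.7%), and 71.0% of them lay after the first 12 and before the last 18 bases, where the segments are joined. The first 12 bases held 13.5% and the last 18 bases 15.6%, and whether sequences that differ only there arose by separate rearrangement or in PCR or sequencing was not tested, so a count of sequences is not a count of rearrangements.

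Within 1 library the variants also occurred side by side. Of the 3745 detections of a member in a library, 742 (19.8%) held 2 or more sequences, against 1.68% for other clonotypes. At an equal count of 2, the 2 counts were of different sequences in 330 of 910 member detections (36.3%) and in 1761 of 28148 others (6.26%). Of the 4651 sequence entries of members, 1 lay a single base from an entry of the same clonotype and library with a count at least 10 times larger. The larger entry must have 10 or more counts, and only 33 of the 3745 detections reached 10. This check therefore cannot show whether variants beside lower counts arose in PCR or sequencing.

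**Figure D4:**
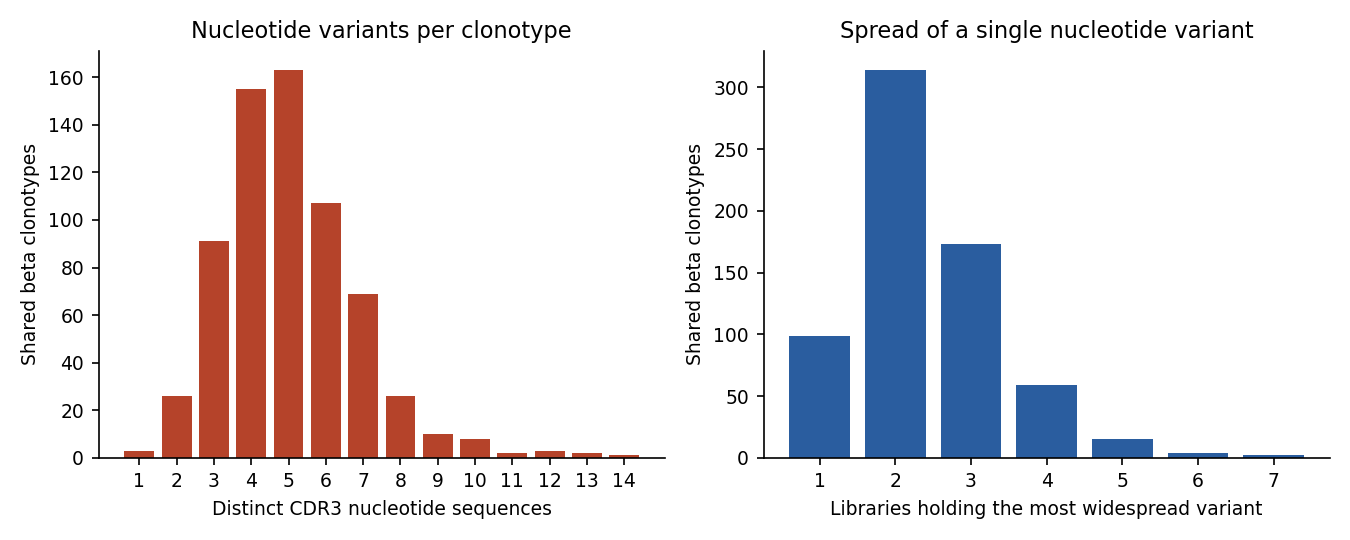
Left, number of shared beta clonotypes by how many distinct CDR3 nucleotide sequences encoded them over all libraries. Right, number of shared beta clonotypes by how many libraries held their most widespread nucleotide sequence. Most had 3 to 7 sequences, and the most widespread sequence was in 1 or 2 libraries for 413 members (62.0%).

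Counts of members in a library were mostly small. A member detected in a library had a mean count of 2.0, against 1.40 for other clonotypes, and 57.0% of detections had a count of 1, against 78.3%. Each such count sums all nucleotide sequences of a clonotype in a library. Since 19.8% of member detections held 2 or more sequences, against 1.68% of others, these counts are not sizes of single clones. Counts of 10 or more occurred in 33 detections (0.881% against 0.333%), and 250 members (37.5%) never exceeded a count of 2. The median total over all libraries was 9 counts (range 5 to 260), and the 10 largest members held 9.09% of the members' counts. A clonotype with a higher count is more readily detected, so counts are tied to the rule. In these bulk libraries more cells of a clone and more receptor RNA per cell cannot be told apart.

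A few members were large in a single sample, and the sequences at those counts are shown beside the most widespread sequence of the same clonotype.
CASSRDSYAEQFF, 3 libraries, 6 counts: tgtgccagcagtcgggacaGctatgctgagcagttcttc
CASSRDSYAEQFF, 1 library, 250 counts: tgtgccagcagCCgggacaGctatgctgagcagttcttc
TRBV31 with TRBJ2-1, 2 libraries, 3 counts: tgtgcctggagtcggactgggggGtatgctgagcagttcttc
TRBV31 with TRBJ2-1, 1 library, 72 counts: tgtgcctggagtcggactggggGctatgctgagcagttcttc
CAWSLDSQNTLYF, 2 libraries, 13 counts: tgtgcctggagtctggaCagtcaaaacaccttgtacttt
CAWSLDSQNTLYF, 1 library, 37 counts: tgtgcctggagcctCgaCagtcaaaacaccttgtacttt
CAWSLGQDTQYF, 2 libraries, 38 counts: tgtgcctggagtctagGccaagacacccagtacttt

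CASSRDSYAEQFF, with TRBV26 and TRBJ2-1, had 0, 0, 250, 0 and 3 counts in CNS4KO samples 1 to 5 and 0, 1, 2, 1 and 3 counts in CNS4Flox samples 1 to 5. CNS4KO sample 3 alone was high, all 250 counts were of the sequence printed, and that sequence was in no other library. The difference was 5.05 ± 2.78 on the log2 scale (CNS4KO minus CNS4Flox, SE), and edgeR's quasi-likelihood test gave it an adjusted p of 0.545.

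The clonotype shown as TRBV31 with TRBJ2-1, of 14 residues, had 1, 0, 0, 1 and 0 counts in CNS4KO samples 1 to 5 and 2, 72, 1, 0 and 1 counts in CNS4Flox samples 1 to 5. The 72 counts of CNS4Flox sample 2 were of a sequence found nowhere else, and the other libraries of both groups overlapped. Its log2 difference was -4.78 ± 1.88 (SE), and edgeR's test gave it an adjusted p of 0.329. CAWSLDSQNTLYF, with TRBV31 and TRBJ2-4, had 0, 0, 2, 0 and 37 counts in CNS4KO samples 1 to 5 and 0, 5, 10, 4 and 5 in CNS4Flox samples 1 to 5, with CNS4KO sample 5 high. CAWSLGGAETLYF, with TRBV31 and TRBJ2-3, had 2, 26, 1, 4 and 0 counts in CNS4KO samples 1 to 5 and 0, 2, 2, 0 and 0 in CNS4Flox samples 1 to 5, with CNS4KO sample 2 high. Each of these large counts stood in 1 library, and the groups overlapped for each clonotype.

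The share of TRB counts that the members held did not separate the groups. It was 2.49%, 3.04%, 3.82%, 2.70% and 2.79% in CNS4KO samples 1 to 5 (2.97 ± 0.517%, n = 5) and 2.58%, 2.80%, 2.64%, 2.72% and 2.59% in CNS4Flox samples 1 to 5 (2.67 ± 0.0928%, n = 5). The groups overlapped, and CNS4KO sample 3 was the highest through the 250 counts of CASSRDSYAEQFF. Without that clonotype the means were 2.77 ± 0.198% and 2.66 ± 0.0945%, and the difference of 0.301 percentage points became 0.106. Left out as a whole, CNS4KO sample 3 took the difference to 0.0654, over the members that the other 9 libraries give.

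CNS4KO libraries held 346, 330, 353, 422 and 422 members in samples 1 to 5, and CNS4Flox libraries 366, 407, 431, 334 and 334. Both ranges coincide closely, and the summed detections were 1873 and 1872. With every library thinned to the smallest TRB total, CNS4KO libraries held 306 ± 15.7 and CNS4Flox libraries 318 ± 12.1 members. As a share of the distinct beta clonotypes at that depth, members made up 2.06% to 2.44% in CNS4KO (2.29 ± 0.136%) and 1.91% to 2.05% in CNS4Flox (2.0 ± 0.0545%). The ranges of that share did not overlap, although the mean number of members at that depth was lower in CNS4KO (306 against 318). CNS4KO libraries had fewer distinct beta clonotypes in all (mean 17669 against 20100 at full depth). The mean count of the other clonotypes, also at full depth, did not overlap either, at 1.41 to 1.71 in CNS4KO and 1.18 to 1.37 in CNS4Flox. The difference in share is thus not particular to the members, and its source was not tested.

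**Figure D5:**
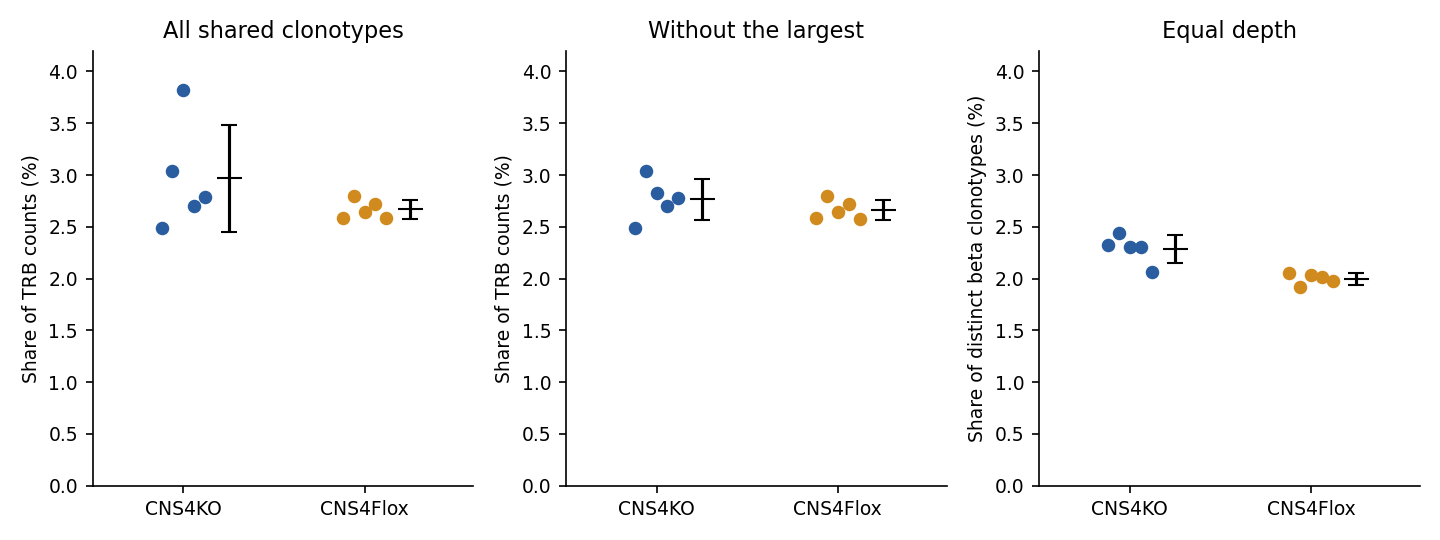
Share of TRB counts held by shared beta clonotypes in each library (left), the same without the clonotype with the highest count (middle), and shared clonotypes as a share of distinct beta clonotypes with all libraries at equal depth (right). Points are libraries (5 per group) and bars are mean ± SD. The groups overlap in the left and middle panels, and in the right panel the lowest CNS4KO library (2.06%) lies just above the highest CNS4Flox library (2.05%).

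By V and J gene, the members' share of TRB counts was set side by side in the groups. For TRBV31 members it was 0.956 ± 0.139% among CNS4KO libraries and 0.962 ± 0.112% among CNS4Flox libraries. TRBV12-1 members held 0.364 ± 0.0488% and 0.256 ± 0.0587%, with 247 and 207 detections, and TRBV15 members 0.194 ± 0.0210% and 0.234 ± 0.0178%, with 149 and 155. TRBV5 members held 0.141 ± 0.0393% and 0.0979 ± 0.0210%, with 102 and 84 detections. TRBV26 members held 0.434 ± 0.505% and 0.256 ± 0.0715%, the former including the 250 counts of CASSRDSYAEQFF, with 151 and 157 detections. The shares of TRBV12-1 and TRBV5 members were thus higher in CNS4KO by more than the SD of either group, and that of TRBV15 members lower. Shares of these genes among the other clonotypes were not set beside them by group. Whether the differences are particular to the members was not tested.

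For J genes, TRBJ2-7 members held 0.878 ± 0.0739% in CNS4KO and 0.901 ± 0.0640% in CNS4Flox, and TRBJ2-4 members 0.435 ± 0.112% and 0.478 ± 0.0882%. TRBJ2-5, named after its values were seen, had the widest gap relative to its spread among J genes with 20 or more members, with 0.437 ± 0.0538% and 0.324 ± 0.0386%, and 241 and 227 detections (SD, n = 5 throughout). These shares are sums over members, with no group shares of the other clonotypes beside them, and were given no test.

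Most members were found in both groups. In all, 654 of the 666 were in both, 292 were in more CNS4KO than CNS4Flox libraries, 285 in more CNS4Flox libraries and 89 in equally many, and for 458 (68.8%) the numbers differed by at most 1. In the fit over the 4634 beta clonotypes found in 3 or more libraries, 0 of 666 members passed an adjusted p of 0.05 (edgeR's quasi-likelihood test, Benjamini-Hochberg), as did 0% of all clonotypes tested. At an unadjusted p under 0.05 in edgeR there were 19 members (2.85%), against 12.4% of all clonotypes tested. Of the 19, 13 were higher in CNS4KO and 6 higher in CNS4Flox. DESeq2 gave 3 of the 666 members and 8 of all 4634 clonotypes, so a lower share among members was not seen with both methods. The median log2 difference was 0.01 over members and -0.08 over all tested, with 335 members above 0 and 331 below. A p that misses the threshold does not show that counts were equal.

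At the extremes, 8 members were in all 5 CNS4KO and no CNS4Flox library, and 4 were in all 5 CNS4Flox and no CNS4KO library. Shares of TRB counts did not overlap between groups for 11 members with CNS4KO above, against 0.237% of clonotypes tested, and for 4 members with CNS4KO below, against 0.0863%. A clonotype needs 5 libraries to meet this, so members alone can, and nothing is read from these counts. The sequences of the named extremes are shown because a one-sided clonotype could also be a one-sided sequence.
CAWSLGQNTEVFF, 4 libraries, 7 counts: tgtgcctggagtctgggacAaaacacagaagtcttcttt
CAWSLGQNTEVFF, 2 libraries, 7 counts: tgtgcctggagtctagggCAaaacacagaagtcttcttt
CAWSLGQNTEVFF, 2 libraries, 3 counts: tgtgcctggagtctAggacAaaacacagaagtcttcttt
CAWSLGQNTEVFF, 1 library, 3 counts: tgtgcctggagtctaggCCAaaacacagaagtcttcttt
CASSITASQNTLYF, 2 libraries, 4 counts: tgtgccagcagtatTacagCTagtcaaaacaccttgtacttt
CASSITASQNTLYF, 2 libraries, 3 counts: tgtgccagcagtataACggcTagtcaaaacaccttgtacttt
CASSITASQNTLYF, 1 library, 1 count: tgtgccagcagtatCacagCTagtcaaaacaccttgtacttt
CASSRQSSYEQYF, 3 libraries, 8 counts: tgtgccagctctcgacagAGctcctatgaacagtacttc
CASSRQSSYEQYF, 1 library, 2 counts: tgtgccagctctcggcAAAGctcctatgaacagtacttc
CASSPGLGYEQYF with TRBV15, 2 libraries, 6 counts: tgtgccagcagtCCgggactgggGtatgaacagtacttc
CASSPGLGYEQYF with TRBV15, 1 library, 2 counts: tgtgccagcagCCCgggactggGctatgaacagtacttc

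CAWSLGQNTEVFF, with TRBV31 and TRBJ1-1, had 6, 5, 7, 1 and 1 counts in CNS4Flox samples 1 to 5 and no count in any CNS4KO library. Its 4 sequences were in 4, 2, 2 and 1 CNS4Flox libraries. A count of 0 among the 138465 TRB counts of CNS4KO allows a share of up to 0.00217%, for counting error only. Its p in edgeR's test was 0.00227, the smallest of any member, and its adjusted p was 0.329.

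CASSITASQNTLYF, with TRBV19 and TRBJ2-4, had 1, 2, 1, 1 and 3 counts in CNS4Flox samples 1 to 5 and none in CNS4KO. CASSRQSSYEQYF, with TRBV12-1 and TRBJ2-7, had 3, 2, 3, 4 and 1 counts in CNS4KO samples 1 to 5 and none in CNS4Flox. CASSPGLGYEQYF, here with TRBV15 and TRBJ2-7, had 6, 1, 1, 2 and 1 counts in CNS4KO samples 1 to 5 and none in CNS4Flox, where 0 of 127882 TRB counts allows up to 0.00235%. Each was carried by 3 to 5 sequences, and the adjusted p of all 3 was 0.329 in edgeR's test. The same loop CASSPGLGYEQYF with TRBV12-1 was also a member and was not one-sided, with 0, 1, 0, 2 and 0 counts in CNS4KO samples 1 to 5 and 2, 1, 2, 9 and 0 in CNS4Flox samples 1 to 5.

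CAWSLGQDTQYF, with TRBV31 and TRBJ2-5, had 3, 1, 5, 7 and 36 counts in CNS4KO samples 1 to 5 and 0, 0, 1, 0 and 0 in CNS4Flox samples 1 to 5. CNS4KO sample 5 was the highest, and 1 count in CNS4Flox was the only one there. The log2 difference was 4.86 ± 1.79 (SE), and the adjusted p was 0.329 in edgeR's test. Its loop differs from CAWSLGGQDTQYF, found in all 10 libraries, by 1 glycine fewer.

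Libraries were not equally close to each other. CNS4KO sample 5 and CNS4Flox sample 3 shared 821 beta clonotypes by V, J and nucleotides, against 96 to 262 in the other 44 library pairs. Among members the same pair shared 66 nucleotide sequences (25 to 60 in the other pairs) and 269 clonotypes (141 to 266). With the sequences common to that pair kept only in the library with the higher count, 646 of the 666 members still met the rule.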

How the data were processed

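Each deposited table lists the clonotypes of 1 library. Per the file headers, its values are a whole-number count per clonotype, the fraction of the library (not used here beyond a check), the CDR3, the names of its V, D and J genes and the positions at which their matches end or begin. Whether counts are reads or molecules, and the aligner and clonotype caller, are not given in the sources used here. The labels name mm10.

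Beta entries were taken by the last 4 CDR3 residues, and entries ending in PLYF were set to TRBJ1-6, a name absent from the tables. These and entries with overlapping matches (77 sequences of members, 7046 of others) were left out of inserted bases, which are the bases between V and D and between D and J, or between V and J without a D match. V, J and length shares count each clonotype once. Equal depth means thinning to 19199 TRB counts, averaged over 20 draws.

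CNS4KO and CNS4Flox (5 samples each, numbered in accession order) were set against each other by quasi-likelihood tests in edgeR on counts of clonotypes in 3 or more libraries, with TRB totals as library sizes and Benjamini-Hochberg adjustment. P-values measure the spread between these samples. A log2 difference is CNS4KO minus CNS4Flox. Its SE was worked back from the test, as the absolute difference divided by the square root of edgeR's F statistic. It is therefore no measure of spread separate from that test. Sequences printed are from the deposited tables, and positions are from RefSeq for GRCm38.p6. The procedures were run on simulated data with planted values, where counts for the group test varied by counting error only. These samples vary by more than that, so the run does not show how small a difference the test could find in them.

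The members and lists were chosen with earlier results of these data known. Named clonotypes are, by mean share, up to 10 in 9 or 10 libraries and the 5 highest; the 3 highest counts in 1 library; the 5 with most sequences; the 3 with the most widespread sequence; up to 3 with 1 sequence; and per direction the 2 with the smallest p and the 2 with the largest difference in libraries. Named V and J genes are the most used and those with the highest and lowest ratios among genes with 20 or more members. Alternatives were other clonotype definitions, thresholds, depths, carry-over filters, tests and left-out samples. Tests ran in edgeR 4.0.16 and DESeq2 1.42.0 under R 4.3.3, and all else in Python 3.11.15 with pandas 2.3.3 and numpy 2.4.6.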

Additional observations from a re-analysis of the deposited data

Results flagged for a closer look

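The highest count of any shared clonotype was 250 in CNS4KO sample 3 (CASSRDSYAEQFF), where the next highest CNS4KO library reached 37, and 72 in CNS4Flox sample 2 (a clonotype of 14 residues with TRBV31 and TRBJ2-1), where the next highest CNS4Flox library reached 13. Each lay far from the other 4 samples of its group by the gap relative to the group's range. Over the 10 values per library checked in each group, 20 sets in all, chance flags about 1 in 20.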

How the results depend on the processing

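The number of shared clonotypes follows its definition. It was 666, against 21 by CDR3 nucleotides, 2591 by CDR3 amino acids alone, 1681 in 4 or more libraries, 263 in 6 or more, 51 with 2 or more counts per library and 367 at equal depth. It was 435 to 498 with each sample left out in turn (lowest without CNS4Flox sample 3, then 440 without CNS4KO sample 5) and 246 without that close pair, where fewer libraries must meet the same threshold. The difference in share of TRB counts was positive in all 22 alternatives, from 0.00829 by nucleotides to 0.783 percentage points by CDR3 amino acids alone, and was 0.0187 with 2 or more counts per library and 0.0624 without the close pair. Members had fewer inserted bases under all 26 alternatives: -1.57 as reported, -1.90 by nucleotides, -1.43 by amino acids alone, -1.73 with 2 or more counts, -1.03 at 13 residues, -0.813 at the V to D join alone, where only 1 join is counted, and -1.83 with a single base between D and J counted as 0. They were shorter under all 23: -0.672 residues as reported, -0.898 by nucleotides, -0.712 in 6 or more libraries and -0.737 with 2 or more counts. No member passed the test in any of 19 alternatives (0 of members; smallest adjusted p 0.300 to 0.986; 0 to 37 members at an unadjusted p under 0.05, edgeR or DESeq2). Removing counts of 1 where the same sequence had 100 or more counts elsewhere removed 0 entries; at 10 or more it removed 37 and left 660 members. The filter at 10, the close pair kept once, the fit to 13 residues, without TRBV31, without the largest member and both counts by join were chosen after seeing the data. No paired analysis was possible because sample numbers here only follow accession order. Most detections are of 1 or 2 counts, so absence from a library is not absence from the sample.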

Other observations

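D matches differed between shared and other clonotypes. Of the distinct member sequences, 56.0% were matched to TRBD1, 37.3% to TRBD2 and 6.75% to no D, against 61.3%, 35.6% and 3.12% of the sequences of other clonotypes. At 12 residues 14.2% of member sequences had no D match, against 8.85%, and at 14 residues TRBD2 was matched in 50.9%, against 37.4%. D matches were not split by J gene, and more members used the second J cluster (77.8% against 68.0% of other clonotypes). Whether the D difference follows J use was not tested. Member sequences kept a mean of 14.03 V bases and 17.9 J bases, against 13.5 and 18.1, in CDR3s of unequal mean length. At equal length both parts were longer in members. The V means were 14.1 against 12.9 bases at 12 residues, 13.6 against 13.1 at 13 and 14.3 against 13.6 at 14. The J means were 16.48 against 16.41 at 12 residues, 17.98 against 17.63 at 13 and 18.8 against 18.4 at 14.

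Of the 666 members, 38 of the 652 with usable positions had more than 2 inserted bases in every one of their sequences, up to a lowest value of 5. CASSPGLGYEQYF with TRBV15, found in all 5 CNS4KO libraries and no CNS4Flox library, and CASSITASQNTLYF with TRBV19, found in all 5 CNS4Flox libraries and no CNS4KO library, are among them, with at least 3 inserted bases in each sequence.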
